A study of Mus musculus with 4 samples.

Results

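The HMG chromatin proteins are 9 genes (Hmgb1, Hmgb2, Hmgb3, Hmga1, Hmga2, Hmgn1, Hmgn2, Hmgn3 and Hmgn5) taken by symbol from a table of 12067 mouse genes, and all 9 had a row. Messenger RNA was counted from its 3′ end (Quant-seq) in KL cells, the lineage-negative cKit+ Sca1- myeloid progenitors of bone marrow, to ask what a truncating Bcor mutation changes in them. Bcor encodes a corepressor that joins a Polycomb complex, PRC1.1. Marrow of male donors given tamoxifen was transplanted into sub-lethally irradiated female Ptprca mice, and the donor-derived (CD45.2+) KL cells were sorted 20 weeks later. The 2 BcorΔE9-10 libraries came from donors labelled scl-Cre-ERT +; Bcorfl/y, in which Cre, driven from a stem cell enhancer of Scl, removed exons 9 and 10 of Bcor. The 2 BcorWT libraries came from donors labelled Bcorfl/y, which carry the same floxed allele without Cre and received the same drug. The control arm therefore lacks the Cre transgene, so the deletion and the transgene cannot be told apart.

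The HMG proteins are abundant non-histone proteins of chromatin that fall into 3 families with unrelated DNA- or nucleosome-binding parts. HMGB proteins bend DNA with paired HMG boxes followed by an acidic tail, HMGA proteins hold AT-rich minor grooves with short AT-hooks, and HMGN proteins bind the nucleosome itself and counteract linker histone. Hmgb2, Hmga1 and Hmgn2 are known for high levels in dividing and immature cells, and Hmga2 for its expression in fetal blood stem cells under the control of Lin28b and let-7.

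Depth ranged from 3825289.5 to 6253100.5 counts a library, so that 3 counts were worth 0.489 to 0.876 CPM (counts scaled to library size). Of the markers of the KL label, 12 of 12 listed genes had a row and summed to 8402 to 11291 CPM, with Mpo, the myeloid progenitor granule enzyme, at 6888, 4284, 6692 and 5331 CPM (here and throughout in the order BcorΔE9-10 replicate 1 and 2, BcorWT replicate 1 and 2). Mature neutrophil and monocyte markers, from cells that a lineage-negative sort is meant to remove, stood higher and summed to 64089, 156279.5, 95450.3 and 145761 CPM, with S100a8, a calcium-binding protein gene of neutrophils, at 31874 to 72238 CPM. The part of such cells in the HMG values was not tested. Libraries also differed within genotype. The rRNA-like transcript Gm42418 took 16.3, 14.3, 27.9 and 1.43% of counts, and the median gene differed by 0.31 on the log2 scale between the BcorΔE9-10 replicates and by 0.57 between the BcorWT replicates. Over the HMG genes those medians were 0.28 and 0.25. Bcor itself had 104, 113, 58 and 79 counts, and reads at its 3′ end do not check the loss of exons 9 and 10. BcorWT replicate 2 stands apart in several results below, which are given with and without it. With 2 libraries a group the labels do not say more than that these are separate samples, so p-values measure the spread between them, and an exact permutation test cannot go below 0.333. A fit that leaves out a library has 1 library in that genotype, so its p-value, wherever given, takes the spread between replicates from the other genotype alone and assumes that the lone library varies alike.

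None of the 9 HMG genes passed an adjusted p of 0.05 in edgeR's quasi-likelihood test with Benjamini-Hochberg adjustment over all genes, where 2 genes, 0.0166% of the table, did. DESeq2 and limma-voom also called 0 of 9, against 0.356% and 0.0331% of all genes. At an unadjusted p under 0.05 the edgeR test held 1 of 9, Hmga1 (lower in BcorΔE9-10), against 3.07% of all genes lower and 1.34% higher. DESeq2 and limma-voom also held 1 of 9 there, Hmga1 again, against 4.19% and 4.27% of all genes. The CPM of the groups did not overlap for 3 of 9 in the higher direction (Hmgb1, Hmga2, Hmgn2), against 16.8% of all genes, and for 3 of 9 in the lower (Hmga1, Hmgn1, Hmgn3), against 17.1%. The median log2 fold change was 0.16 over the 9 genes and -0.03 over all genes, and 6 of 9 lay above 0, against 47.7% of all genes. Without BcorWT replicate 2 the median of the 9 was -0.05. In bulk samples fewer cells that carry a transcript and less of it per cell cannot be told apart, here or below.

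**Figure D1:**
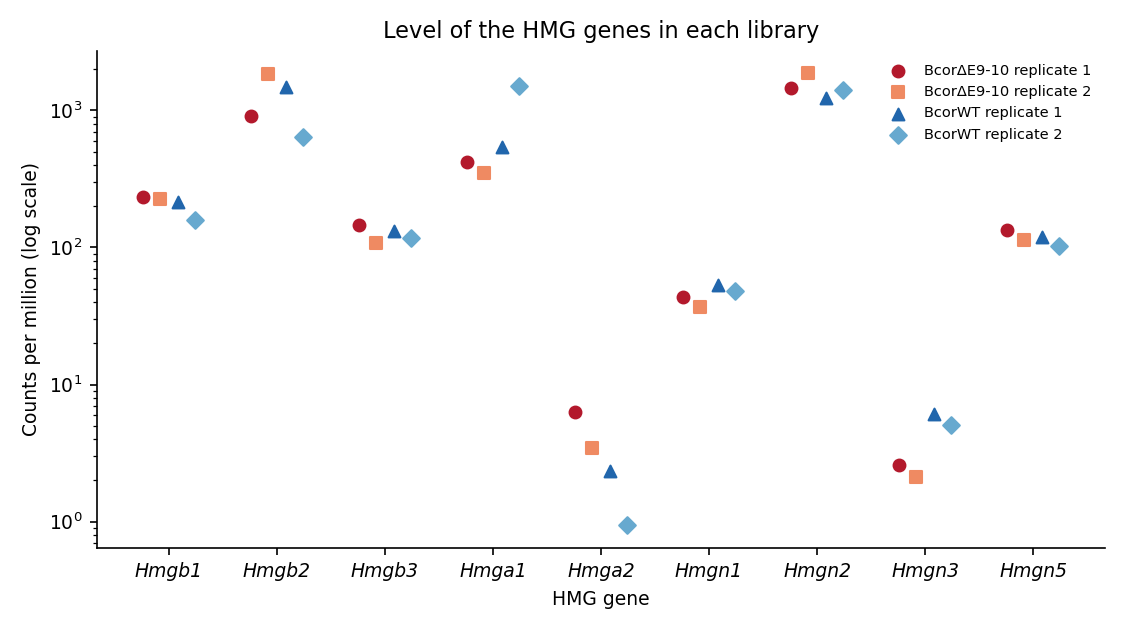
CPM (log axis) of the 9 HMG genes, 1 point for each of the 4 libraries, coloured and shaped by library. Hmgn2, Hmgb2 and Hmga1 stand highest, and Hmga1 in BcorWT replicate 2 (1510 CPM) lies far above the other libraries (347 to 541 CPM).

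A 3′ library gives about 1 read a transcript whatever its length, so transcript length does not bar setting CPM side by side between genes. Counts assigned to copies of these genes, described below, are not in these values and differ from gene to gene. In mean CPM over the 4 libraries Hmgn2 (1487 CPM) came first, then Hmgb2 (1216), Hmga1 (705), Hmgb1 (208), Hmgb3 (126), Hmgn5 (118), Hmgn1 (45.6), Hmgn3 (3.98) and Hmga2 (3.25). Each family thus had 1 dominant gene. Ranges over the libraries overlapped between Hmgn2 and Hmgb2, Hmgb2 and Hmga1, Hmgb3 and Hmgn5, and Hmgn3 and Hmga2, so those neighbours have no fixed order. The steps from Hmga1 to Hmgb1, Hmgb1 to Hmgb3, Hmgn5 to Hmgn1 and Hmgn1 to Hmgn3 held in 4 of 4 libraries. Hmgn2, Hmgb2 and Hmga1 lay at the 99.6, 99.4 and 99.0 percentile of mean CPM over the table, and Hmga2 at the 9.69 percentile.

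The 3 Hmgb genes encode DNA benders with the same layout, a pair of boxes and a C-terminal acidic tail. The last codons before the stop that begin with GA, which encode aspartate or glutamate, form unbroken runs of 30 in Hmgb1, 23 in Hmgb2 and 20 in Hmgb3 (GENCODE M21). Hmgb1 (chr5:149046702-149184489, GRCm38, minus strand), which also acts as an alarm signal outside the cell, had 234, 225, 216 and 159 CPM. Both BcorΔE9-10 libraries were above both BcorWT libraries, with BcorWT replicate 2 lowest. The log2 fold change was 0.30 ± 0.32 (standard error, n = 2 and 2, edgeR adjusted p = 0.95), 0.09 without that library and 0.53 without BcorWT replicate 1.

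Hmgb2 (chr8:57511907-57515999, plus strand), which accumulates in cycling progenitors and belongs to the SET complex, had 907, 1848, 1468 and 642 CPM. The highest and lowest libraries came from different genotypes, but each genotype had one high and one low library. The difference was 0.39 ± 0.51 on the log2 scale (edgeR adjusted p = 0.957) and turned to -0.21 without BcorΔE9-10 replicate 2 and to -0.09 without BcorWT replicate 2, while it was 0.81 without BcorΔE9-10 replicate 1 and 1.10 without BcorWT replicate 1. Hmgb3 (chrX:71555918-71560676), a gene of early blood progenitors, had 145, 108, 131 and 118 CPM, with overlapping groups and nearly equal means (log2 fold change 0.03 ± 0.32, edgeR adjusted p = 0.995). It was -0.20 without BcorΔE9-10 replicate 1 and 0.23 without BcorΔE9-10 replicate 2.

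Summed over the family, Hmgb CPM were 1286, 2182, 1815 and 919, with a log2 difference of 0.38 (exact two-sided permutation p = 0.667). With the copies described below added it was 0.70 (exact permutation p = 0.333, the smallest possible). Hmgb2 gave 70.5, 84.7, 80.9 and 69.9% of the family's counts, a share that followed the library and not the genotype (exact permutation p = 0.667).

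**Figure D2:**
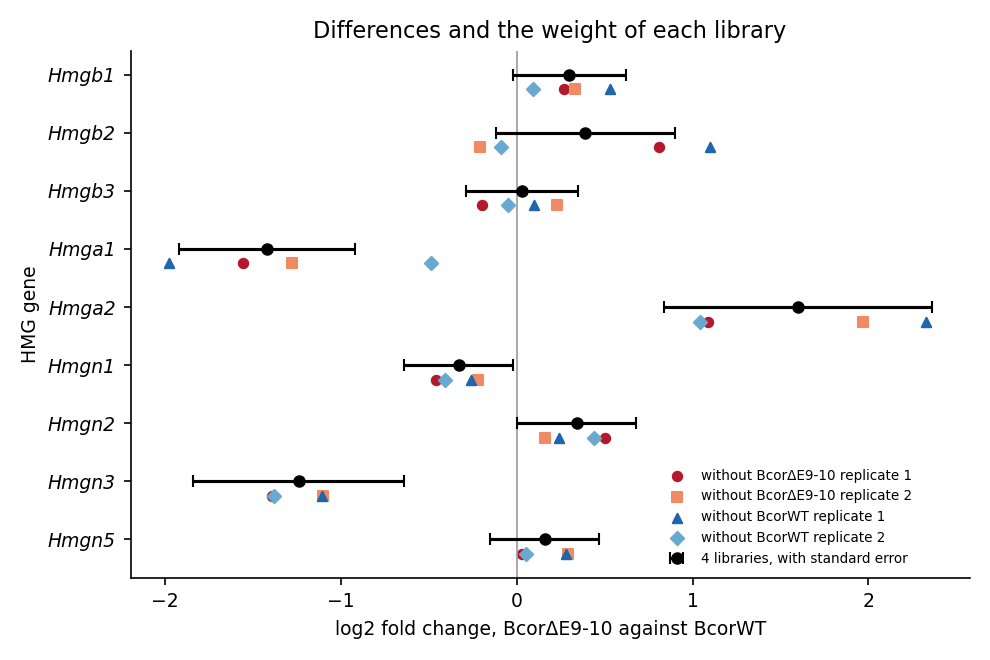
log2 fold change of the 9 HMG genes, BcorΔE9-10 against BcorWT. Black points with bars give the edgeR estimate and its standard error over 4 libraries, coloured points the estimate without 1 library. Hmga1 moves from -1.42 to -0.49 without BcorWT replicate 2 and to -1.98 without BcorWT replicate 1, while Hmgb2 changes sign.

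Hmga1 and Hmga2 encode the AT-hook proteins. Each coding sequence holds 3 codon runs for the AT-hook core arginine-glycine-arginine-proline. The coding stretch around the second core is shown for both, since it is what the family has in common, with the core codons in capitals (GENCODE M21, GRCm38, chr17:27560952-27560996 and chr10:120473273-120473317).
Hmga1: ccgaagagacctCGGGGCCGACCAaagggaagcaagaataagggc
Hmga2: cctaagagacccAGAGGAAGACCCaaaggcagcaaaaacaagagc
The genes spell the same core with different codons.

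Hmga1 (chr17:27556497-27563674, plus strand) had 422, 347, 541 and 1510 CPM, from 2285, 2128, 1854 and 8024 counts. Both BcorΔE9-10 libraries were below both BcorWT libraries, and 1 BcorWT library stood far above the other 3. Its log2 fold change was -1.42 ± 0.50 (edgeR adjusted p = 0.945). The adjusted p ranged from 0.0151 to 1.0 over the alternatives: leaving out BcorWT replicate 1 made the call (log2 fold change -1.98, edgeR adjusted p = 0.0151, with 596 genes of the table then called and the spread taken from the BcorΔE9-10 libraries alone) and leaving out BcorWT replicate 2 brought the value to -0.49. In BcorWT replicate 2, Gm42418 was also at its lowest (1.43% of counts), and with Gm42418 left out of the table the value was -1.44 (edgeR adjusted p = 0.937).

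Hmga2 (chr10:120361275-120476469, minus strand) was near the floor of detection, with 34, 21, 8 and 5 counts or 6.28, 3.42, 2.34 and 0.941 CPM. The groups did not overlap. The log2 fold change was 1.60 ± 0.76 (edgeR adjusted p = 0.945), from 1.04 without BcorWT replicate 2 to 2.33 without BcorWT replicate 1. Hmga2 made up 1.47, 0.977, 0.43 and 0.0623% of Hmga counts, higher in 2 of 2 BcorΔE9-10 libraries (exact permutation p = 0.333, the smallest possible), and part of that share moves with Hmga1 in its denominator. Of the Lin28b, let-7 and Hmga2 pathway, 6 of 9 listed genes had a row, Lin28b had none, and 0 of 6 passed an unadjusted p of 0.05 in edgeR, against 4.42% of all genes. Without BcorWT replicate 1 it was 3 of 6, against 25.0% of all genes in that fit.

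The 4 Hmgn genes share a nucleosome-binding core of 8 residues, arginine-arginine-serine-alanine-arginine-leucine-serine-alanine. The 42 coding bases around it are shown with the 24 core bases in capitals, since the core is what the family has in common (GENCODE M21, GRCm38, chr16:96127195-96127434, chr4:133966471-133966959, chr9:83112262-83120375 and chrX:109010599-109011424, all minus strand, each split over 3 exons).
Hmgn1: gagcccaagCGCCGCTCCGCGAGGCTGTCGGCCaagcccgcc
Hmgn2: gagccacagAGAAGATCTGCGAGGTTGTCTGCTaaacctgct
Hmgn3: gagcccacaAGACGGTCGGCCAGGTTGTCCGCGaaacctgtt
Hmgn5: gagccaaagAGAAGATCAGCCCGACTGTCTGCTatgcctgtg
The 4 stretches spell the same core with different codons and are split over the same number of exons. Hmgn5 differs in size, with 406 codons against 90 to 99 in the other three.

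Hmgn1 (chr16:96120618-96127729), the Down syndrome region nucleosome binder, had 43.6, 37.0, 53.4 and 48.2 CPM. Both BcorΔE9-10 libraries were lower, with a fold change of -0.33 ± 0.31 on the log2 scale (edgeR adjusted p = 0.945), within -0.46 and -0.22 whichever library was left out. Hmgn2 (chr4:133964738-133968650), highest of the HMG genes in mean CPM, had 1462, 1859, 1225 and 1401 CPM. Both BcorΔE9-10 libraries were higher, by 0.34 ± 0.34 on the log2 scale (edgeR adjusted p = 0.946), from 0.16 without BcorΔE9-10 replicate 2 to 0.50 without BcorΔE9-10 replicate 1. Both differences were about as large as their standard errors.

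Hmgn3 (chr9:83109948-83146685), a nucleosome binder best known in eye, brain and pancreatic islet, was low, with 14, 13, 21 and 27 counts or 2.59, 2.12, 6.13 and 5.08 CPM. Replicates lay close together and the groups did not overlap. The log2 fold change was -1.24 ± 0.60 (edgeR adjusted p = 0.945) and stayed between -1.39 and -1.10 whichever library was left out, the steadiest of the differences over 1. Hmgn5 (chrX:109004534-109013404), whose long acidic tail targets open chromatin, had 135, 114, 119.7 and 102 CPM, with overlapping groups (0.16 ± 0.31 on the log2 scale, edgeR adjusted p = 0.967). Its value was 0.03 without BcorΔE9-10 replicate 1, 0.05 without BcorWT replicate 2, 0.29 without BcorΔE9-10 replicate 2 and 0.28 without BcorWT replicate 1.

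Within the family Hmgn2 gave 87.2 to 92.4% of counts, with overlapping groups. Hmgn1 gave 2.65, 1.84, 3.81 and 3.09%, and Hmgn3 0.157, 0.105, 0.437 and 0.326%. Both minor shares were lower in both BcorΔE9-10 libraries (exact permutation p = 0.333 each, the smallest possible). Summed Hmgn CPM were 1643, 2012, 1404 and 1557, a log2 difference of 0.30 (exact permutation p = 0.333), and summed CPM of all 9 HMG genes were 3358, 4544, 3763 and 3986, a log2 difference of 0.01 (exact permutation p = 1.0). It was 0.31 with Hmga1 left out of the sum, an alternative chosen after seeing the data, and 0.24 with copies added (exact permutation p = 0.667 each).

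HMG genes have left many retrocopies in the mouse genome, and 25 rows of the table with at least 90% identity to an HMG gene over at least 50% of the copy are described here. Hmgb1 and Hmgn2 had 9 each, Hmgb2 5, and Hmgb3 and Hmgn5 1 each, while Hmga2, Hmgn1 and Hmgn3 had 0. Copies of Hmga1 were not analysed here. Reads of 75 bases can fall on such a copy as well as on the gene, so counts of HMG genes can be split among rows or listed in several, and their values are uncertain by that much. Copies took 38.4, 39.5, 45.6 and 26.5% of Hmgb1-type counts, 47.2, 35.4, 1.64 and 40.0% of Hmgb2-type counts, and 7.57, 17.1, 10.8 and 13.9% of Hmgn2-type counts. For Hmgb2 the share in BcorWT replicate 1 stood far below the other 3 libraries. The Hmgb2 shares add rows of near-equal count, described below, and reads listed in several of them would count more than once.

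**Figure D3:**
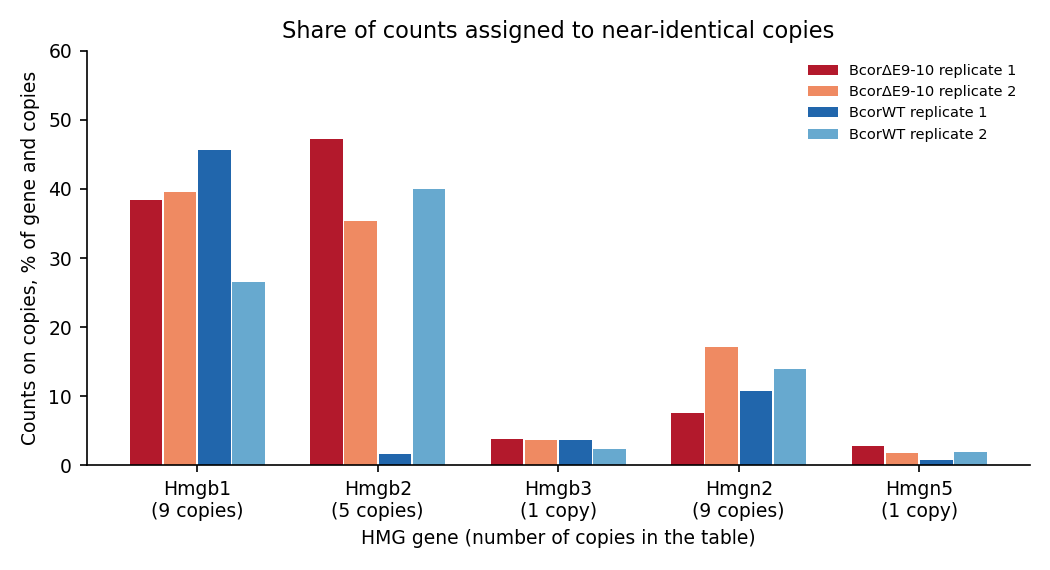
Counts on near-identical copies as a percent of the gene and its copies together, for 5 HMG genes, 1 bar for each library. For Hmgb2 BcorWT replicate 1 stands at 1.64%, against 35.4 to 47.2% in the other 3 libraries. Reads listed in several rows would count more than once in these shares.

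The Hmgb2 copies on chromosome 4 (Gm13160, Gm13167, Gm13232 and Gm13237, all processed pseudogenes on the minus strand) gave most of the Hmgb2-type copy counts. Positions are counted from the 5′ end of the transcript Hmgb2-201, in which coding starts at base 124. Gm13167 and Gm13160 are shown next to Hmgb2 over positions 231 to 300, with bases that differ from Hmgb2 in capitals, since these bases are what tells the copies from the gene (GRCm38, chr8:57512706-57513088 across an intron, chr4:146224485-146224554 and chr4:147086808-147086877).
Hmgb2: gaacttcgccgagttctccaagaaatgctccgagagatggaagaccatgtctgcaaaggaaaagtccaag
Gm13167: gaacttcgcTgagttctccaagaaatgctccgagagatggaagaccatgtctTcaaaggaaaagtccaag
Gm13160: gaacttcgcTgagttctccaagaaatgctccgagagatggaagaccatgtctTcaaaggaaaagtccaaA
All 4 copies share C240T, G283T, C566T and C729A, and Gm13160 alone adds G300A here. Over positions 631 to 740, which run into the acidic tail, Gm13167 and Gm13232 lack 3 bases, in capitals in the Hmgb2 line, and all 4 copies carry C729A, in capitals in the copies (chr8:57514002-57514111, chr4:146224048-146224154 and chr4:146564469-146564578).
Hmgb2: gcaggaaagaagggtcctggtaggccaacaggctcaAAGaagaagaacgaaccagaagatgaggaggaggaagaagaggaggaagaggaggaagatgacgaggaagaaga
Gm13167: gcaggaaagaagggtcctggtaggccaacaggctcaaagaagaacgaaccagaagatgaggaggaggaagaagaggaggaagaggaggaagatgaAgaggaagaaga
Gm13237: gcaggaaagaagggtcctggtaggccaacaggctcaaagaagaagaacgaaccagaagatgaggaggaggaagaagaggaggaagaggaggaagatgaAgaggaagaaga
Of the 504 windows of 75 bases in Gm13167, all 504 also occur in Gm13232, 438 in Gm13237, 176 in Gm13160 and 242 in Hmgb2.

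Gm13167 had 1444, 2028, 17 and 21 counts, so both BcorΔE9-10 libraries were far above both BcorWT libraries. All 504 windows of 75 bases in Gm13167 also occur in Gm13232. Full-length reads there cannot be told apart between these rows, so the counts cannot be given to Gm13167 alone. Gm13167 was the only one of the 25 copies called by edgeR (log2 fold change 6.07 ± 0.41, adjusted p = 0.00577), against 0.0166% of all genes. The value lay between 5.90 and 6.23 whichever library was left out, with the adjusted p from 7.39e-38 to 0.0104 over the alternatives.

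Gm13232 had 1444, 2035, 17 and 942 counts and Gm13237 had 1469, 2073, 16 and 947, so these followed Gm13167 in 3 libraries and parted from it in BcorWT replicate 2. Their log2 fold changes were 1.71 ± 1.12 and 1.73 ± 1.13 (edgeR adjusted p = 0.945 each), and 5.91 and 6.02 without BcorWT replicate 2. Gm13160 ran the other way, with 4, 20, 14 and 348 counts (log2 fold change -4.10 ± 1.19, edgeR adjusted p = 0.945), and BcorWT replicate 2 stood far above the rest. Without that library its value was -1.0, without BcorΔE9-10 replicate 2 it was -5.52 (edgeR adjusted p = 0.0385), and without BcorWT replicate 1 it was -4.99 (edgeR adjusted p = 0.00255), both with the spread of the other genotype alone. The 3 rows near 1444 counts in BcorΔE9-10 replicate 1 share most of their windows, and how many reads they hold in common was not tested.

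**Figure D4:**
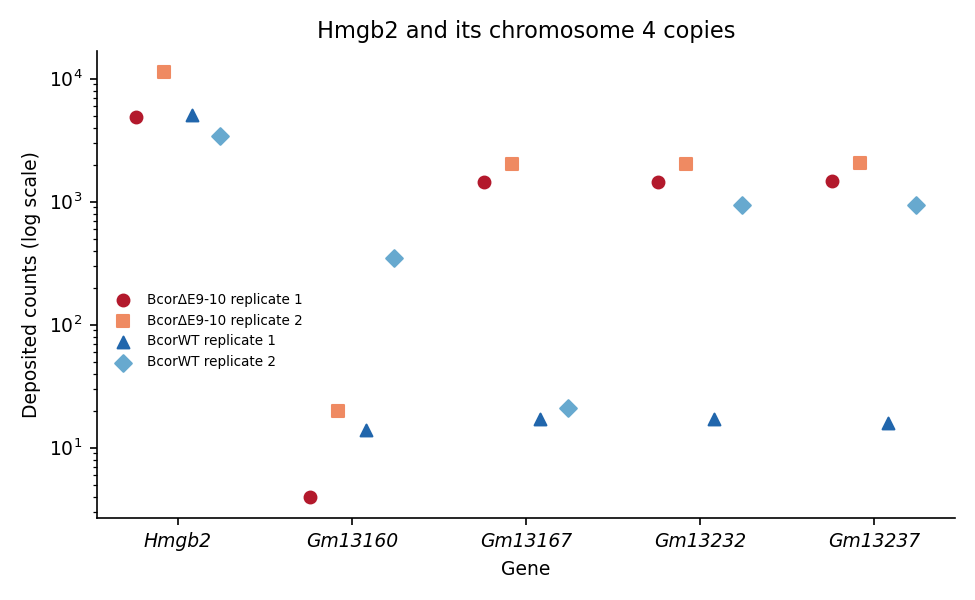
Deposited counts (log axis) of Hmgb2 and its 4 chromosome 4 copies, 1 point for each library. Gm13167 is high in both BcorΔE9-10 libraries (1444 and 2028) and low in both BcorWT libraries (17 and 21), and BcorWT replicate 2 is high in Gm13232 (942) and Gm13237 (947).

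Adding the 5 copies to Hmgb2 gave 9283, 17559, 5110 and 5684 counts. Both BcorΔE9-10 libraries then lay above both BcorWT libraries, where Hmgb2 alone overlapped, by 0.84 ± 0.40 on the log2 scale (edgeR adjusted p = 0.944). If the rows of near-equal count hold the same reads, this sum counts them up to 3 times. Counting the 4 chromosome 4 copies once, as the largest of them, an alternative chosen after seeing the data, gave 6375, 13411, 5043 and 4360 counts or 1179, 2187, 1473 and 821 CPM. The groups then overlapped again (0.55 ± 0.45 on the log2 scale, edgeR adjusted p = 0.945). For Hmgb1 (log2 fold change 0.30) and Hmgn2 (0.35) the sums stayed near the genes alone. Gm10282, an intronless Hmgn2 copy on chromosome 8, had 224, 1500, 169 and 645 counts, and Gm21596, an Hmgb1 copy on chromosome 2, had 351, 454, 262 and 140, both with overlapping groups.

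No gene listed as working with or against the HMG proteins passed an adjusted p of 0.05 in edgeR over the 4 libraries. Of the linker histones, which compete with HMGN and HMGB proteins for the nucleosome, 1 of 7 passed an unadjusted p of 0.05 in edgeR, against 4.42% of all genes. This was H1fx (8.13, 5.87, 12.3 and 35.6 CPM, log2 fold change -1.78 ± 0.56, adjusted p = 0.945). Of 6 SET complex partners of Hmgb2, 1 passed, the exonuclease gene Trex1 (9.06, 8.15, 14.6 and 24.1 CPM, -1.17 ± 0.42), also lower. The SET complex count was 0 without BcorΔE9-10 replicate 1 (against 2.01% of all genes in that fit), 0 without BcorΔE9-10 replicate 2 (3.10%), 0 without BcorWT replicate 2 (5.71%) and 2 without BcorWT replicate 1 (25.0%). That of the linker histones was 0 without BcorWT replicate 2 and 2 without BcorWT replicate 1. Set itself had 648, 616, 799 and 1326 CPM (-0.75 ± 0.37). H1fx, Trex1 and Set were highest in BcorWT replicate 2, as Hmga1 was, and without that library H1fx came to -0.81, Trex1 to -0.76 and Set to -0.34.

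None of 22 tested genes of other HMG-box proteins (median log2 fold change -0.15), 7 receptors of extracellular Hmgb1 (0.13) or 22 cell division genes (0.17) passed an unadjusted p of 0.05 in edgeR, against 4.42% of all genes. DESeq2 held 1 of the cell division genes and 0 of the others. Without BcorWT replicate 1 edgeR held 6 of 22, 2 of 7 and 7 of 22 at an unadjusted p, against 25.0% of all genes in that fit. Summed CPM of the cell division genes were 3232, 3711, 2878 and 3757, with overlapping groups. Hmgb2 was highest in BcorΔE9-10 replicate 2 and lowest in BcorWT replicate 2. The part of cell division in the Hmgb2 values was not tested.

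Among 1449 genes with a mean of at least 100 CPM, the profiles closest to Hmgb2 over the 4 libraries were Actr2, mt-Nd3, Spcs2, Gsr and Xbp1 (root mean square distance of centred log2 CPM 0.112 to 0.200). The closest to Hmga1 were Pcnx3, Ptpa, Mif, Jund and Mark2 (0.074 to 0.171), each highest in BcorWT replicate 2. The 4 points share a depth and a library preparation each, so the likeness is a description of these libraries.

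Of the markers of other cells, edgeR called 0 at an adjusted p of 0.05 over the 4 libraries, and DESeq2 called 3. These were the erythroid Car2, a carbonic anhydrase gene (log2 fold change 2.45, DESeq2 adjusted p = 0.00467), and the basophil protease genes Mcpt8 (-1.96, DESeq2 adjusted p = 0.000704) and Prss34 (-2.10, DESeq2 adjusted p = 0.000623). Of 11 erythroid markers tested, 6 were higher in BcorΔE9-10 at an unadjusted edgeR p under 0.05, against 1.34% of all genes, and 0 lower, with summed CPM of 193 to 215 in BcorΔE9-10 and 81.8 to 94.1 in BcorWT, while Alas2 and Epor had no row. The count was 3 without BcorΔE9-10 replicate 1 (against 0.580% of all genes higher in that fit), 4 without BcorΔE9-10 replicate 2 (0.697%), 6 without BcorWT replicate 1 (11.9%) and 8 without BcorWT replicate 2 (2.18%). Of 10 mast cell, basophil and eosinophil markers, 6 were lower, against 3.07% of all genes, and 0 higher, with summed CPM of 586 and 661 against 994 and 1419. Those lower were 4 without BcorΔE9-10 replicate 1 (against 1.43% of all genes lower in that fit), 4 without BcorΔE9-10 replicate 2 (2.41%), 8 without BcorWT replicate 1 (13.1%) and 4 without BcorWT replicate 2 (3.53%). None of 14 mature neutrophil and monocyte markers passed an unadjusted p of 0.05 in edgeR, against 1 in DESeq2. In edgeR 5 passed without BcorΔE9-10 replicate 2, against 3.10% of all genes in that fit, and 8 without BcorWT replicate 1, against 25.0%. In edgeR over the 4 libraries, none of the 5 lymphoid markers with a row, of 15 listed, passed. Of 5 megakaryocyte markers 1, Pf4, was lower at an unadjusted edgeR p under 0.05, against 3.07% of all genes. The log2 fold change of Pf4 was -0.98 ± 0.36. It ranged from -1.15 without BcorWT replicate 1 to -0.78 without BcorWT replicate 2. The part of these shifts in the HMG values was not tested.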

How the data were processed

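The authors sorted donor-derived KL cells, made Quant-seq 3′ libraries (75-base single-end reads), trimmed with cutadapt, aligned to GRCm38 (mm10) with HISAT2 and counted reads per gene with featureCounts of Subread, per the study's methods and the submitters' processing notes, which name different cutadapt versions. The counts deposited by the authors are unnormalised, 1 row per gene. The expected counts in 2 deposited columns hold 1 row that is not whole, and were rounded. How reads with several best places were counted is not given in the sources used here.

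From these counts edgeR 4.0.16 (TMM scaling, quasi-likelihood test, filterByExpr, which removed 0 genes) compared 2 BcorΔE9-10 with 2 BcorWT libraries, with Benjamini-Hochberg adjustment over 12067 genes. Fold changes used a prior count of 0.125 and profiles a prior count of 2. Sums and shares were tested by exact two-sided permutation. DESeq2 1.42.0, limma-voom 3.58.1, other scalings and filters, a replicate block, sums with copies and leaving out each library were alternatives. Scripts were tested on simulated data. Copies were found with blastn 2.17.0 against GENCODE M21 transcripts, and of 26 rows considered Tmx3, a gene of its own, was not counted. Genes named beside the members follow a fixed rule: the copies, the 3 most abundant genes of each list and those with an unadjusted p under 0.05, and the 5 nearest profiles of Hmgb2 and Hmga1. Not all are printed. Members and lists were chosen with earlier results of these data known. Protein sequences were not used here, and some items are not reported here.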

Additional observations from a re-analysis of the deposited data

How the results depend on the processing

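The number of genes called in the table was 2 and became 5 with at least 10 counts in every library, 4 in limma-voom, 43 in DESeq2 and from 6 to 596 with 1 library left out. The HMG genes called were 0 and from 0 to 1 with a library left out (1 without BcorWT replicate 1), and those at an unadjusted p under 0.05 were 1, then 2 with at least 10 counts and 0 to 3 with a library left out (0 without BcorΔE9-10 replicate 2 and without BcorWT replicate 2, 3 without BcorWT replicate 1, against 25.0% of all genes there). Copies called ranged from 1 to 3, and the median of the HMG genes from -0.05 to 0.24. Leaving out a library reversed Hmgb2 (-0.21 to 1.10), Hmgb3 (-0.20 to 0.23), Gm10282 (-1.05 to 1.53) and Gm21596 (-0.14 to 1.39), the summed CPM of all HMG genes (-0.21 to 0.23) and of Hmgb (-0.12 to 0.87), and the differences in share of Hmgb1 (-4.26 to 3.62), Hmgb2 (-4.89 to 9.32), Hmgb3 (-5.05 to 1.27) and Hmgn5 (-1.91 to 0.66). The summed CPM of all HMG genes was -0.00 with Gm42418 left out. Of 117 alternative values of the 9 HMG genes, 112 kept their direction and side of the threshold, 1 became a call and 4 reversed. Some of these values could hardly differ from the main fit. The filter removed 0 genes, the prior count left p-values as they were, and Hmga2, Hmgn1 and Hmgn3 had no copies to add. The reversals among the HMG genes all came from leaving out a library. Leaving Hmga1 out of the sum, and counting the chromosome 4 copies once with Hmgb2, were chosen after seeing the data and reversed no value. Causes were not tested.

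The replicate numbers are shared by label alone (correlation of same-numbered deviations -0.0945). With the replicate block 14 genes and 2 copies were called (Gm13160 besides Gm13167, edgeR adjusted p = 0.0475), 0 HMG genes, and 5 of 14 neutrophil and monocyte markers passed an unadjusted p, against 3.85% of all genes. There were 2 libraries a group. With members summed with copies, 0 HMG genes were called.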
